A study of Mus musculus with 11 samples.

Results

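The nascent polypeptide-associated complex (NAC) is a heterodimer of an alpha and a beta subunit that sits at the exit of the ribosomal tunnel. Here 3 mouse genes of the complex were followed in cochlear RNA: Naca, which encodes the alpha subunit, Btf3, which encodes the usual beta subunit, and Btf3l4, which encodes a close relative of Btf3 that can take the beta position. The genes were taken by symbol, and they are 3 of 18667 genes in the expression tables. All 3 passed the filter, a mean of 0.1 FPKM or more, as did 16169 genes in all. They were chosen by the FPKM difference of Btf3l4 between genotypes in these same libraries, with its partners added by name, so their genotype differences are given as a description and not as a test.

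RNA came from whole cochleae of 2-month-old mice, with 1 library for each individual cochlea. There were 5 Atf6+/+ libraries and 6 Atf6-/- libraries, numbered here by genotype and replicate. Atf6-/- mice carry a premature stop codon in Atf6, and the controls were littermates. Both genotypes were on the C57BL/6J background, which carries the Cdh23ahl allele of age-related hearing loss, and the labels list no treatment. The labels do not say which libraries came from separate animals, so p-values measure the spread between these libraries. A whole cochlea holds hair cells, nerve, stria, fibrocytes, bone and blood, and in such bulk RNA fewer cells of a type and less RNA per cell cannot be told apart.

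NAC is among the first factors that a growing polypeptide meets. It contacts the nascent chain as it leaves the ribosome, keeps the signal recognition particle (SRP) from carrying ribosomes without a signal sequence to the endoplasmic reticulum (ER), and helps bring enzymes that trim and acetylate the N-terminus. ATF6, the protein missing in these mice, is an ER membrane protein whose cytosolic part is released during ER stress and switches on genes for ER chaperones and ER-associated degradation. NAC works on the cytosolic side of the same membrane, on chains that have not yet entered the ER.

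Values are FPKM, fragments per kilobase of transcript scaled to the size of the library, so levels of different genes can be compared per length. The FPKM of a library summed to between 474616 and 537926 in Atf6+/+ and between 462005 and 502419 in Atf6-/- libraries. Correlations of log2 values between libraries lay between 0.963 and 0.99, and no pair of libraries was identical. Atf6 itself was measured at 8.25 to 10.56 FPKM in wild-type cochleae and at 3.83 to 4.59 FPKM in those without Atf6, so each library went with its label. The log2 difference of Atf6, Atf6-/- minus Atf6+/+, was -1.13 (SE 0.08, limma adjusted p = 5.167e-05). Of 18 markers of hair cells, stria vascularis, supporting cells and fibrocytes, 17 were above 0 in every library, and Bsnd was at 0 in at least 1 library. The genotypes were compared with limma on log2(FPKM + 0.1), and adjusted p-values are by the Benjamini-Hochberg method over all 16169 genes. By an adjusted p under 0.05, 11 genes (0.068% of those tested) differed, of which 9 (0.0557%) were higher and 2 (0.0124%) lower in Atf6-/- cochleae.

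Btf3 and Btf3l4 are alike over most of their coding sequence. In the GENCODE M21 annotation of GRCm38, the coding sequence of Btf3-201 is 615 bases long and that of Btf3l4-201 is 477. Of 473 aligned bases, 337 (71.2%) were identical. The longest run shared by any transcript of Btf3 and any transcript of Btf3l4 was 19 bases. No run of 31 bases was shared by both genes, so an error-free sequencing read of 100 bases belongs to one of them and not to the other. Naca is more distant, with 56.1% of 583 aligned bases identical to Btf3.

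Other gene models do share long runs with these genes. The Btf3l4 coding sequence was identical over all 477 bases to that of Gm20075, an intronless copy on another chromosome that GENCODE lists as coding and RefSeq as a pseudogene. Over the transcripts of Btf3l4, 1542 of 4540 runs of 100 bases (33.96%) were also found in Gm20075. For Btf3, 26.57% of such runs were found in Gm9828 or Gm3531. For Naca 438 of 6804 (6.437%) were found in Gm6863. The Naca runs come from transcripts of 885 and 6745 bases, so most belong to the longer one. The share within the shorter Naca transcript was not computed. None of these copies was analysed here. The FPKM were estimated with RSEM, and how it divided reads between a gene and its copy is not given in the sources used here. The FPKM of Btf3l4 is therefore uncertain to the extent that Gm20075 is transcribed. The same holds for Btf3 and Naca with their copies.

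Naca and Btf3 were among the most abundant mRNAs of the cochlea. Btf3l4 was the rarer beta mRNA, with 12.3 times as much Btf3 in wild-type cochleae. In Atf6-/- cochleae every Btf3l4 value lay below every wild-type value, while the values of Naca and Btf3 overlapped between genotypes. The plot of the members' FPKM shows each library.

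**Figure D1:**
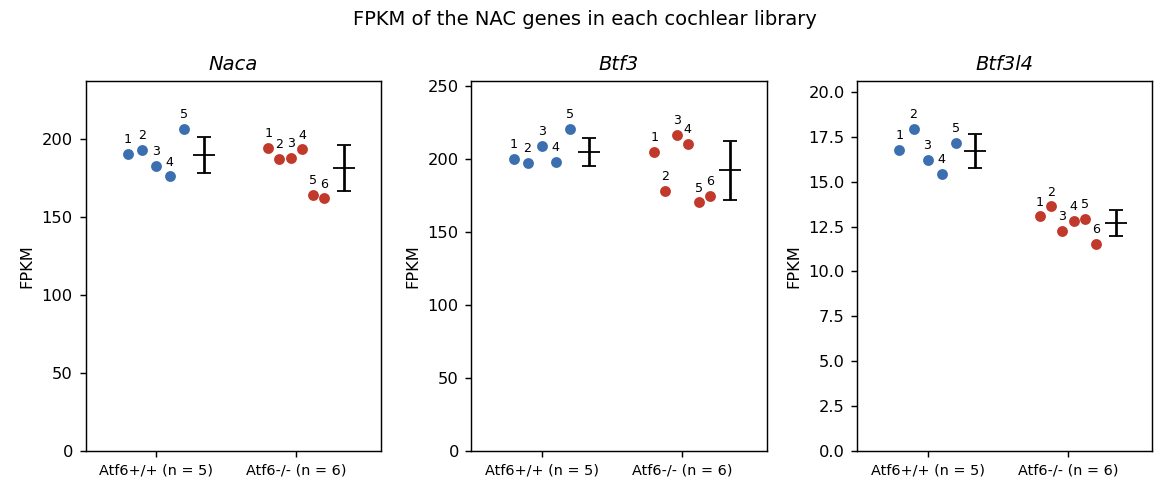
FPKM of Naca, Btf3 and Btf3l4 (vertical axes, each from 0) in 5 Atf6+/+ and 6 Atf6-/- cochlear libraries. Points are libraries with their replicate number, and bars are mean and SD; only for Btf3l4 do the genotypes not overlap, with 15.45 FPKM the lowest wild-type and 13.63 FPKM the highest Atf6-/- value.

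Naca, the alpha subunit, was measured at 190.05, 192.73, 182.32, 175.8 and 205.97 FPKM in Atf6+/+ libraries 1 to 5. In Atf6-/- libraries 1 to 6 the Naca values were 194.22, 187, 187.51, 193.05, 163.65 and 161.7 FPKM. Atf6-/- libraries 5 and 6 lay below the lowest wild-type value and the other 4 lay within the wild-type range. The means were 189.4 ± 11.4 FPKM (SD, n = 5) and 181.2 ± 14.6 FPKM (SD, n = 6), and the log2 difference was -0.07 (SE 0.06, 95% interval -0.20 to 0.07). Of all genes tested, 97.67% had a lower mean level than Naca.

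Btf3, the beta subunit, was measured at 199.89, 197.29, 208.56, 198.04 and 220.12 FPKM in Atf6+/+ libraries 1 to 5. In Atf6-/- libraries 1 to 6 the Btf3 values were 204.61, 177.64, 216.04, 209.94, 170.03 and 174.51 FPKM. Libraries 2, 5 and 6 of the Atf6-/- group lay below all wild-type values and the other 3 lay within the wild-type range. The means were 204.8 ± 9.68 FPKM (SD, n = 5) and 192.1 ± 20.3 FPKM (SD, n = 6), and the log2 difference was -0.10 (SE 0.07, 95% interval -0.25 to 0.06). The SD of Btf3 was larger in Atf6-/- than in Atf6+/+ cochleae, and 97.86% of genes tested had a lower mean level.

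Btf3l4, the second beta gene, was measured at 16.78, 17.93, 16.24, 15.45 and 17.17 FPKM in Atf6+/+ libraries 1 to 5. In Atf6-/- libraries 1 to 6 the Btf3l4 values were 13.07, 13.63, 12.27, 12.84, 12.91 and 11.53 FPKM. All 6 Atf6-/- values were below the lowest wild-type value, with a gap of 1.82 FPKM between the groups. Over all genes tested, groups did not overlap in 202 genes (1.25%), and in 98 (0.606%) every Atf6-/- value lay below every Atf6+/+ value. The Btf3l4 means were 16.7 ± 0.94 FPKM (SD, n = 5) and 12.7 ± 0.72 FPKM (SD, n = 6), so the Atf6-/- mean was 76.03% of the wild-type mean. The log2 difference was -0.39 (SE 0.06, 95% interval -0.51 to -0.27).

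Btf3l4 was selected on this difference, and its partner genes were chosen by name beside it. Its limma adjusted p of 0.0193 made it 1 of the 2 genes lower in Atf6-/- at an adjusted p under 0.05, and it is given as the value behind the choice. With 1 library left out the log2 difference stayed between -0.42 and -0.37. The adjusted p then exceeded 0.05 without Atf6+/+ library 1, 2 or 5 or Atf6-/- library 1, 3, 4 or 5, with values between 0.0504 and 0.0834. With the replicate number as a block the log2 difference of Btf3l4 was -0.37 and its limma adjusted p was 0.28. In size, its absolute log2 difference ranked 1418 among the genes tested. Spread within genotypes was small, with a residual SD of 0.08 on the log2 scale, and 11.63% of genes tested had a smaller one.

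Under both other scalings of the libraries the Btf3l4 values of the genotypes did not overlap. After each library was rescaled to TPM, in which every library has the same sum, Btf3l4 lay between 30.18 and 37.78 TPM in Atf6+/+ and between 24.42 and 28.51 TPM in Atf6-/- cochleae, with a log2 difference of -0.34 and a limma adjusted p of 0.123, above the threshold. After median-of-ratios scaling it lay between 15.4 and 17.76 in Atf6+/+ and between 11.61 and 13.76 in Atf6-/- cochleae. For the partner genes TPM brought the log2 differences nearer to 0, to -0.01 for Naca and -0.04 for Btf3. The plot of each setting gives the differences of all 3 genes side by side.

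**Figure D2:**
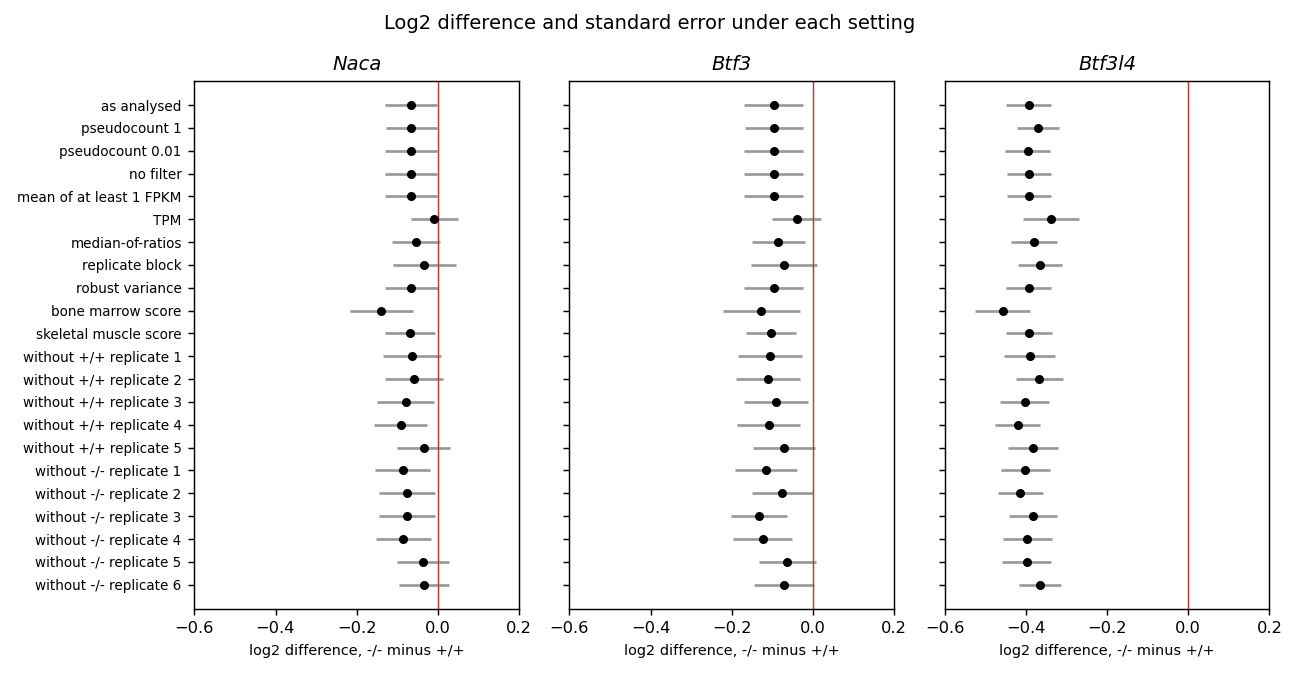
Log2 difference (Atf6-/- minus Atf6+/+, horizontal axis) with its standard error for Naca, Btf3 and Btf3l4 under the setting used in the text, 10 other settings and 11 fits that each leave out 1 library (vertical axis). The points of Btf3l4 lie between -0.46 and -0.34, those of Naca between -0.14 and -0.01 and those of Btf3 between -0.13 and -0.04.

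The make-up of the beta subunit mRNA differed with the level of Btf3l4. In Atf6+/+ libraries 1 to 5 Btf3l4 gave 7.74, 8.33, 7.22, 7.24 and 7.24% of the summed FPKM of Btf3 and Btf3l4. In Atf6-/- libraries 1 to 6 it gave 6.004, 7.13, 5.37, 5.76, 7.06 and 6.20%. The genotypes did not overlap, but Atf6-/- libraries 2 and 5 came within 0.2 percentage points of the lowest wild-type share, and in both Btf3 was low. Means were 7.55 ± 0.49% (SD, n = 5) and 6.25 ± 0.71% (SD, n = 6). Expressed the other way, there were 12.3 ± 0.82 Btf3 for each Btf3l4 in Atf6+/+ and 15.2 ± 1.80 in Atf6-/- cochleae, per length.

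The balance of alpha to beta mRNA overlapped between genotypes. Naca divided by the sum of Btf3 and Btf3l4 was 0.877, 0.896, 0.811, 0.824 and 0.868 in Atf6+/+ libraries 1 to 5. In Atf6-/- libraries 1 to 6 this ratio was 0.892, 0.978, 0.821, 0.867, 0.895 and 0.869. The groups overlapped, with means of 0.855 ± 0.036 (SD, n = 5) and 0.887 ± 0.052 (SD, n = 6). The beta sum was 221.5 ± 9.84 FPKM (SD) in wild-type cochleae against 204.8 ± 20.3 FPKM (SD) in the Atf6-/- group. Btf3 was above Naca in all 5 Atf6+/+ libraries and in 5 of 6 Atf6-/- libraries, library 2 being the exception.

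**Figure D3:**
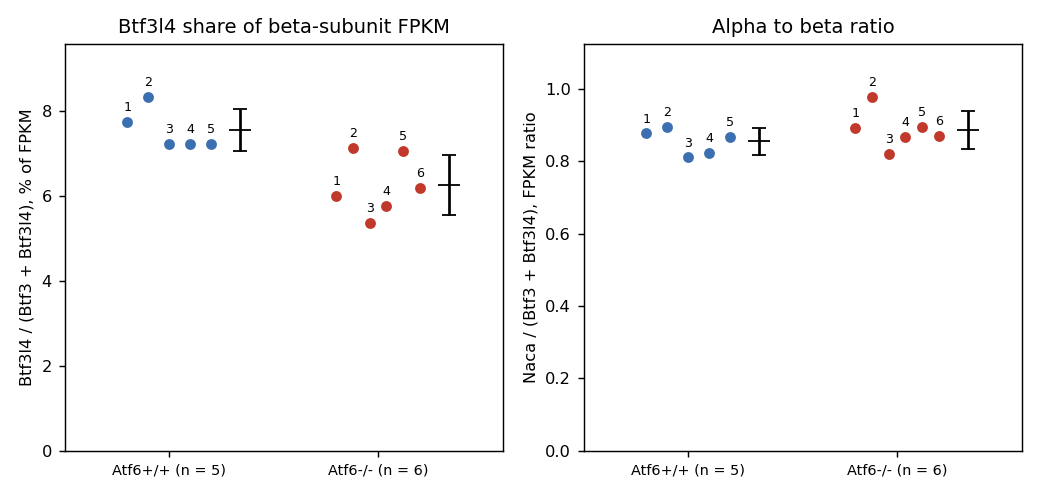
Left, the percentage of beta-subunit FPKM that came from Btf3l4, and right, the FPKM ratio of Naca to the sum of Btf3 and Btf3l4, in each of 5 Atf6+/+ and 6 Atf6-/- libraries, with mean and SD as bars and both axes from 0. The Btf3l4 share runs from 7.22 to 8.33% in wild-type libraries and from 5.37 to 7.13% in the Atf6-/- group, while the ratio overlaps between genotypes.

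A further alpha gene is expressed in the cochlea. Nacad, whose product holds a NAC alpha domain, was measured at 38.5 ± 3.20 FPKM (SD, n = 5) in wild-type cochleae against 38.2 ± 2.27 FPKM (SD, n = 6) in the Atf6-/- group. Its log2 difference was -0.01 (SE 0.06, limma adjusted p = 0.977), with a 95% interval from -0.14 to 0.12. In wild-type cochleae the order of levels per length was therefore Btf3, Naca, Nacad and Btf3l4, in which the ranges of Btf3 and Naca overlapped and the others were separate. The order of the 4 means was the same in Atf6-/- cochleae. Naca2 was not analysed here.

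Within genotypes the alpha and the usual beta gene varied together and Btf3l4 followed Btf3 little. After the mean of each genotype was removed, Naca and Btf3 correlated over 11 libraries with Pearson r = 0.75 (exact permutation p = 0.0164, adjusted p = 0.0492) and Spearman rho = 0.755 (exact permutation p = 0.0159, adjusted p = 0.0478). Permutations were made within genotypes, two-sided, and adjusted over 3 relations. Without Atf6-/- libraries 5 and 6, the farthest from the median of Naca, r was 0.538, so much of the relation rests on those 2 libraries. In such values, here and below, the genotype means stayed those over all libraries and were not taken anew.

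Naca and Btf3l4 gave r = 0.621 (exact permutation p = 0.0558, adjusted p = 0.0837) and rho = 0.527 (exact permutation p = 0.12, adjusted p = 0.179), and r = 0.624 without the same 2 libraries. Btf3 and Btf3l4 gave r = 0.0413 (exact permutation p = 0.914, adjusted p = 0.914) and rho = -0.0727 (exact permutation p = 0.841, adjusted p = 0.841), and r = 0.169 without Atf6-/- libraries 3 and 4. The values of 1 library share its composition and scaling, whose part in these relations was not tested.

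**Figure D4:**
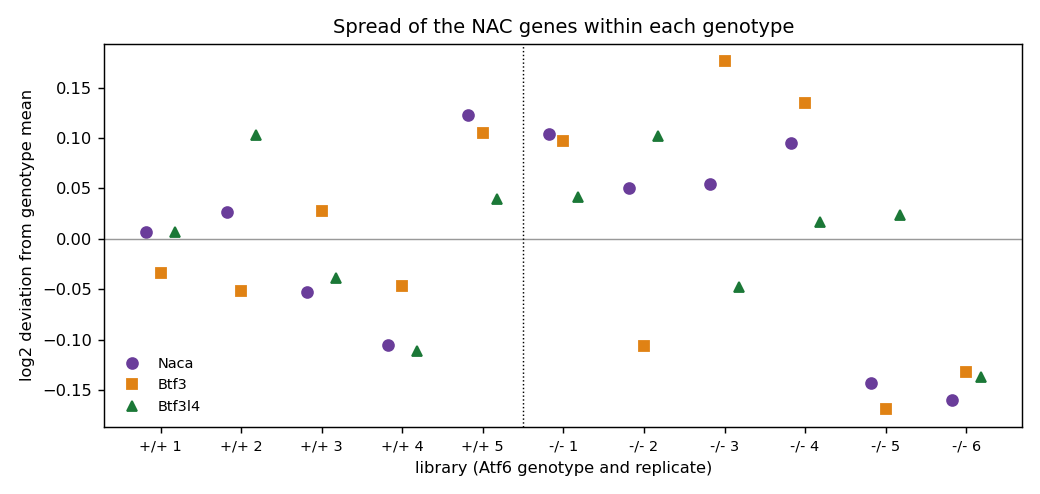
Log2 deviation of Naca, Btf3 and Btf3l4 from the mean of their own genotype (vertical axis) in each library (horizontal axis, 5 Atf6+/+ to the left of the dotted line and 6 Atf6-/- to the right). Naca and Btf3 are both low in Atf6-/- libraries 5 and 6, whereas Btf3l4 is low in library 6 and near its mean in library 5.

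The genes most like each member in these deviations were found among 13610 other genes whose mean was 1 FPKM or more, as a description over 11 libraries that share composition and scaling. For Naca they were Sf3a3, a splicing factor subunit (r = 0.939), Dhrs4, a dehydrogenase (r = 0.939), and Asb16 (r = 0.938). For Btf3 they were Il18bp, which encodes a secreted inhibitor of interleukin-18 (r = 0.966), Tmem43, a membrane protein gene (r = 0.96), and D8Ertd738e (r = 0.959). For Btf3l4 they were Napepld, a phospholipase of acylethanolamine synthesis (r = 0.913), Zrsr2, a factor of the minor spliceosome (r = 0.899), and Sephs2, which makes selenophosphate (r = 0.889). The 3 genes most like Btf3l4 within genotypes had log2 genotype differences of -0.01, 0.04 and 0.00, beside the -0.39 of Btf3l4. Btf3 came 259th and Btf3l4 934th in the order of likeness to Naca. In the order of likeness to Btf3l4, Naca came 352nd and Btf3 6508th.

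Ribosomal proteins form the site that NAC binds. Over 84 ribosomal protein genes the median r was 0.617 with Naca and 0.798 with Btf3, but -0.01 with Btf3l4. Over all genes compared the corresponding medians were 0.081, 0.097 and 0.021. In the deviations, then, Btf3 and Naca lay with ribosomal protein genes and Btf3l4 did not, a description for which no test was made. The deviations are of FPKM values, and the part of library scaling and composition in this grouping was not tested.

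The promoter of Btf3l4 is shown because ATF6 and the other ER stress factors bind known short sequences. RefSeq promoter windows run from 250 bases before to 50 after a transcript start, and all 3 genes had at least 1. The first 260 bases of the Btf3l4 window, which is chr4:108834253-108834552 on the minus strand of GRCm38.p6, are printed 5′ to 3′ on the strand of the gene with capitals marking CCAAT boxes on either strand.
Btf3l4 promoter: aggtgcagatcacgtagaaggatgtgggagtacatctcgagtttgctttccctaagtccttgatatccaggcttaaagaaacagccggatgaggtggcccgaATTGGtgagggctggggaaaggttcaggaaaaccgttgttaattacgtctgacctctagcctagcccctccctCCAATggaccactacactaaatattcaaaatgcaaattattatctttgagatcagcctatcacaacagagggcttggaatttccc
The CCAAT box at -75 reads with the gene and the box at -148 reads against it. Of 32851 promoter windows, 37.41% held a CCAAT box on either strand. The ER stress response element (ERSE), a CCAAT box followed after 9 bases by CCACG, was not found in any Btf3l4, Naca or Btf3 window, and 0.1187% of all windows held it. ERSE-II (0.03653% of windows), the unfolded protein response element (TGACGTGG, 0.6758%) and an ATF4 site (TGATGNAAT, 0.965%) were also searched on both strands without a match in these windows. Matches and missing matches describe these letters in these windows only.

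The promoters of the 3 genes differ in composition. The GC content of the window was 46.33% for Btf3l4 and 46.0% for Naca, against 66.33% and 66.67% for the windows of the 2 Btf3 starts, and the median of all windows was 52.67%. In the 250 bases before the start there were 6 CpG dinucleotides for Btf3l4, 11 for Naca, and 26 and 28 for Btf3. None of these windows had a 5′ terminal oligopyrimidine start (a C and then 4 pyrimidines) at the annotated base, which 2.505% of all windows had.

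The genes next to Btf3l4 on chromosome 4 were looked at in turn, by the gene order of GRCm38. Of the 5 nearest tested coding genes on either side, 0 of 10 passed an unadjusted rule that asked for a limma p no higher than 0.05 together with a log2 difference beyond 0.05 in size. Over all genes 1592 (9.85%) passed this rule, 868 (5.37%) as lower and 724 (4.48%) as higher, and after scaling to TPM 439 passed as lower and 1389 as higher. The log2 differences of the 10 genes next to Btf3l4 ran from -0.23 to 0.09. Txndc12, an ER protein of the thioredoxin family that lies head to head with Btf3l4, had a wild-type mean of 32.6 ± 4.52 FPKM (SD, n = 5) against 31.4 ± 3.64 FPKM in the Atf6-/- group (SD, n = 6), a log2 difference of -0.05 (limma adjusted p = 0.875). Zfyve9, on the other side, encodes an endosomal anchor of SMAD signalling and had a log2 difference of -0.04.

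Around Naca on chromosome 10, Hsd17b6, a steroid and retinoid dehydrogenase gene, was measured at 5.01 ± 1.36 and 8.27 ± 2.58 FPKM (log2 difference 0.70, limma adjusted p = 0.4) and Rbms2, an RNA-binding protein gene, had a log2 difference of 0.13 (limma adjusted p = 0.482). These 2 of 10 genes passed the unadjusted rule as higher. Around Btf3 on chromosome 13, 1 of 10 did, Tmem171, a transmembrane protein gene, with 7.38 ± 2.25 and 11.2 ± 1.58 FPKM (log2 difference 0.63, limma adjusted p = 0.368).

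The other genes that act on chains leaving the ribosome were followed in 10 lists by role, with 78 genes tested. By an adjusted p under 0.05, 0 of 78 differed, while 6 (7.692%) passed the unadjusted rule as lower and 2 (2.564%) as higher, shares near the 5.37% and 4.48% of all genes. The median log2 difference was -0.05, against -0.01 over all genes, and 61 of 78 (78.2%) were lower, against 54.7% of all genes. After median-of-ratios scaling 57 of the 78 were lower with a median of -0.04, and with the marrow score as a covariate 62 were lower with a median of -0.07. TPM raised the log2 differences of all genes, with a median of 0.04 and 6039 of 16169 genes lower, and in TPM 36 of the 78 were lower with a median of 0.00. The count of genes that passed as lower was 2 without Atf6-/- library 5 and 2 without Atf6-/- library 6, and 5 to 9 without any one of the others. The count that passed as higher was 2 or 3 whichever library was left out. The log2 differences of the 78 genes began at -0.25.

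**Figure D5:**
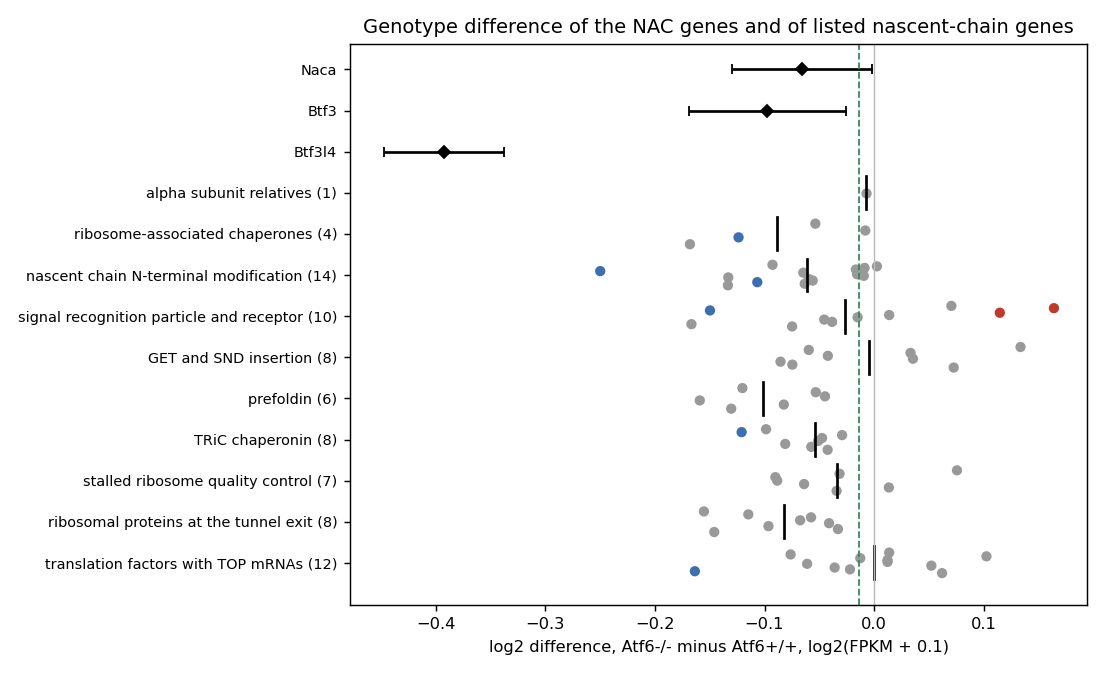
Log2 difference (Atf6-/- minus Atf6+/+ on log2(FPKM + 0.1), horizontal axis) of Naca, Btf3 and Btf3l4 (diamonds with standard errors) and of 78 listed genes (points, number of genes in brackets), blue or red where a gene passed the unadjusted rule as lower or higher and grey otherwise. Black bars are list medians and the green dashed line is the median of all genes (-0.01). Btf3l4, which was selected on its difference, is at -0.39.

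Among chaperones and enzymes that meet the chain at the tunnel exit, 0 of 18 genes passed the adjusted rule and 3 passed the unadjusted rule as lower, against 5.37% of all genes. Of 4 ribosome-associated chaperone genes, Hspa14, the Hsp70 subunit of the ribosome-associated complex, passed the unadjusted rule as lower. It was at 16.4 ± 0.33 FPKM in Atf6+/+ and 15.0 ± 0.88 in Atf6-/- cochleae (log2 difference -0.12, limma adjusted p = 0.462). Of 14 genes that modify the N-terminus, 13 were lower and 2 passed the unadjusted rule. Metap2, which removes the initiator methionine, was measured at 34.5 ± 1.12 and 32.1 ± 0.52 FPKM without overlap (log2 difference -0.11, limma adjusted p = 0.407). Naa38, a subunit of an N-terminal acetyltransferase, was measured at 82.0 ± 7.5 and 69.3 ± 9.63 FPKM (log2 difference -0.25, limma adjusted p = 0.457). Of the 4 chaperone and 14 modifying genes, 3 and 11 were lower after median-of-ratios scaling and 2 and 8 in TPM. In TPM Hspa14 was at -0.07 (limma unadjusted p = 0.244) and Metap2 at -0.05 (limma unadjusted p = 0.334), and neither passed the unadjusted rule. Hspa14 also missed it without Atf6+/+ library 2 (-0.12) or Atf6-/- library 5 (-0.10), and Naa38 without Atf6+/+ library 4 (-0.23) or 5 (-0.20) or Atf6-/- library 6 (-0.21). With the marrow score as a covariate Hspa14 and Metap2 missed it, at -0.14 and -0.10.

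SRP and NAC meet at the same site of the ribosome, and the genes of SRP and its receptor lay on both sides of 0. Among 10 tested, Srpr, the alpha subunit of the SRP receptor, averaged 70.0 ± 4.01 FPKM (SD) in wild-type against 78.4 ± 3.46 FPKM (SD) in Atf6-/- cochleae (log2 difference 0.16, limma adjusted p = 0.374). Srp72, a protein of the SRP core, was higher in every Atf6-/- library than in any wild-type library, with 30.9 ± 0.73 and 33.5 ± 1.08 FPKM (log2 difference 0.11, limma adjusted p = 0.4). Srp9, part of the SRP domain that slows elongation, was at 38.4 ± 1.41 and 34.7 ± 3.17 FPKM (log2 difference -0.15, limma adjusted p = 0.475). In TPM Srp9 was at -0.09 (limma unadjusted p = 0.139) and missed the unadjusted rule, as it did without Atf6+/+ library 2 or 5 or Atf6-/- library 4, 5 or 6, with values from -0.14 to -0.12. With the marrow score as a covariate Srp9 was at -0.25, and Srpr (0.11) and Srp72 (0.09) missed the rule. Over all genes 104 (0.643%) had every Atf6-/- value above every wild-type value. None of the 8 genes of the GET and SND routes, which insert proteins by their tail or an internal segment, passed the unadjusted rule.

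Downstream folding factors had no gene past the adjusted threshold. All 6 prefoldin genes and all 8 genes of the chaperonin TRiC were lower by sign, with list medians of -0.10 and -0.05. After median-of-ratios scaling 6 of 6 and 8 of 8 were lower, and in TPM 4 of 6 and 4 of 8. Cct8, a TRiC subunit, passed the unadjusted rule, with 71.5 ± 2.02 FPKM in Atf6+/+ and 65.9 ± 3.93 in Atf6-/- cochleae (log2 difference -0.12, limma adjusted p = 0.456). In TPM it was at -0.06 (limma unadjusted p = 0.242) and missed the rule, as it did without Atf6+/+ library 3 (-0.11) or Atf6-/- library 5 (-0.11) or 6 (-0.10). Of 7 genes that clear stalled ribosomes, 0 passed.

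The ribosomal proteins at the tunnel exit, to which NAC binds, had 8 of 8 genes lower by sign and 0 past the unadjusted rule, with a median of -0.08 that was -0.03 in TPM. Among 12 translation factors whose mRNAs begin with an oligopyrimidine tract, 6 were lower and 6 higher by sign, and in TPM 3 were lower and 9 higher. Eef1b2, which recharges elongation factor 1 with GTP, was measured at 48.9 ± 4.16 and 43.7 ± 3.39 FPKM (log2 difference -0.16, limma adjusted p = 0.475). It passed the unadjusted rule, but missed it in TPM, at -0.11 (limma unadjusted p = 0.0601), and without Atf6+/+ library 5 (-0.12) or Atf6-/- library 5 (-0.14) or 6 (-0.13).

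Markers of blood and marrow cells were set beside Btf3l4, and 0 of 27 passed the adjusted rule. By sign all 9 neutrophil markers, 8 of 9 B cell markers and all 9 erythroid markers were lower in Atf6-/- cochleae, 5, 3 and 6 of them past the unadjusted rule, which 5.37% of all genes passed as lower. Their summed levels ran from 257.6 to 3200 FPKM in wild-type libraries and from 93.1 to 1203 FPKM in the Atf6-/- group for neutrophils. For B cells the sums were 31.8 to 56.8 and 30.4 to 40.3 FPKM. They include Ebf1, the 1 B cell marker higher by sign, with means of 22.1 FPKM in wild-type and 23.2 FPKM in Atf6-/- cochleae. For erythroid cells the sums were 3385 to 32100 and 1970 to 6491 FPKM. Within these lists only Vpreb1 was at 0 in any library. With the mean score of the 3 marrow lists as a covariate the log2 difference of Btf3l4 was -0.46 (SE 0.07, limma adjusted p = 0.0585).

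By sign 6 of the 7 bone markers were lower, and 0 passed the unadjusted rule. The bone sums were 2087 to 3779 FPKM in wild-type libraries against 2032 to 2587 FPKM in the Atf6-/- group. Spp1, the 1 bone marker higher by sign, averaged 1900 FPKM in wild-type and 1947 FPKM in Atf6-/- cochleae. Hair cell markers were higher by sign in 7 of 7 cases, and 0 passed the adjusted rule. Of these 2, Ocm and Slc26a5, passed the unadjusted rule, which 4.48% of all genes passed as higher. The hair cell sums were 36.7 to 116.8 FPKM in wild-type libraries against 66.0 to 146.7 FPKM in the Atf6-/- group. Ocm alone averaged 34.2 FPKM in wild-type and 74.0 FPKM in Atf6-/- cochleae. The mean log2 value of the list ran from 1.71 to 3.29 in wild-type libraries and from 2.28 to 3.16 in the Atf6-/- group. The 5 stria vascularis markers and the 6 markers of supporting cells and fibrocytes were higher by sign as well, with 0 past the adjusted rule. In each of these lists 1 passed the unadjusted rule, against the same 4.48% of all genes. By sign 7324 of all 16169 genes were higher. Skeletal muscle markers summed to 51.7 FPKM in Atf6-/- library 3 and had a highest sum of 7.66 FPKM in Atf6+/+ libraries. Myh4 and Tnnc2 were at 0 in at least 1 library. Without Atf6-/- library 3 the log2 difference of Btf3l4 was -0.38, and with a skeletal muscle score as a covariate it was -0.39 (limma adjusted p = 0.0451). The part of cochlear cell and bone content in the Btf3l4 difference was not tested.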

How the data were processed

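RNA from 5 Atf6+/+ and 6 Atf6-/- whole cochleae was sequenced from stranded mRNA libraries on a DNBSEQ platform. The deposited FPKM values were estimated by the authors with RSEM, version 1.2.12 in the submitters' processing notes, after HISAT2 2.0.4 had placed reads on GRCm39. The study's methods give a nominal depth, but FPKM holds no read counts, so per-library depth and counting error could not be derived.

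Tables were joined by gene identifier. Genes whose mean reached 0.1 FPKM were fitted with limma 3.58.1 (R 4.3.3) on log2(FPKM + 0.1) with a mean-variance trend and genotype as the only term, two-sided, with Benjamini-Hochberg adjustment. A fold on this scale understates changes of low genes. The fit was tested on simulated data. The unadjusted rule (p of at most 0.05, absolute log2 difference above 0.05) is modelled on the study's rule, which used p-values of another tool and a cut on the fold change.

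Named genes were the 3 members, Atf6, symbols starting with Naca or Btf3, up to 3 genes with the smallest p past the unadjusted rule in each list, the 3 genes most correlated with each member, the 5 nearest tested genes on each side, and markers of lists that moved with a member. The members and lists were chosen with earlier results of these data known. Promoters came from RefSeq (GRCm38.p6) and transcripts from GENCODE M21, a build other than that of the files, so the only coordinates given are those of a promoter window on GRCm38.p6. Alternatives were 2 other pseudocounts, 2 other filters, a replicate block, TPM, robust variance, scaling by median of ratios, marrow and muscle scores as covariates, and leaving out each library.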

Additional observations from a re-analysis of the deposited data

How the results depend on the processing

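Naca, Btf3, Btf3l4 and Atf6 kept their direction in all 21 alternatives, and Atf6 kept its call. The adjusted call of Btf3l4 was lost with TPM (log2 difference -0.34, adjusted p = 0.123 by limma) and with the marrow score as a covariate (-0.46, adjusted p = 0.0585), and leaving out 1 library gave -0.42 to -0.37 with adjusted p from 0.0143 to 0.0834. Deviations of libraries with the same replicate number correlated at 0.095, -0.122, -0.21, 0.119 and -0.04. Libraries with different numbers were not compared in this way, so whether the number marks pairs cannot be told. With the number as a replicate block, over 10 libraries, Btf3l4 was at -0.37 (adjusted p = 0.28 by limma), 3 genes were higher and 1 lower at an adjusted p under 0.05, 422 were higher by the unadjusted rule, and 0 listed nascent-chain genes were lower. Against 9 higher and 2 lower genes by the adjusted rule, the marrow score gave 5 and 1 and TPM gave 1 lower; leaving out 1 library gave 1 to 3 lower, 1 without Atf6+/+ library 2 or 5 or Atf6-/- library 1, 3, 4 or 5, and 7 to 10 higher. Against 724 higher and 868 lower by the unadjusted rule, TPM gave 1389 and 439 and the marrow score 326 and 564. Of the listed genes 2 were higher and 6 lower; TPM gave 5 and 1, median-of-ratios scaling 4 higher, and the marrow score 0 higher, while leaving out 1 library gave 2 to 9 lower. The cause of these changes was not tested. FPKM carries no read depth, so small differences in low genes could not be set against counting error.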
